A study of Mus musculus with 36 samples.

Results

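The matrix proteases, their inhibitors and the lysyl oxidases were examined as a module of 54 protein-coding mouse genes out of the 53379 genes in each count table. Members were chosen by gene symbol alone, as the matrix metalloproteinases (Mmp), their tissue inhibitors (Timp1 to Timp4), the numbered ADAMTS proteases, the lysyl oxidases (Lox and Loxl1 to Loxl4), the fibroblast protease Fap, the procollagen C-proteinase enhancers Pcolce and Pcolce2, and peroxidasin (Pxdn). The rule uses no measured value. By textbook role they fell into 4 TIMPs, 3 collagenases, 2 gelatinases, 4 stromelysins and matrilysin, 6 membrane-type MMPs, 7 other secreted MMPs, 7 proteoglycan-cleaving ADAMTS, 3 procollagen N-proteinase ADAMTS, 9 other ADAMTS, 6 lysyl oxidases and peroxidasin, and 3 genes for Fap and the enhancers.

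RNA had been sequenced from formalin-fixed, paraffin-embedded tissue of mice carrying the conditional ASPSCR1-TFE3 LSL/+ allele, which encodes the fusion protein found in translocation renal cell carcinoma. Sglt2-Cre; ASPSCR1-TFE3 LSL/+ mice, in which Cre is driven by a proximal tubule promoter, gave kidney tumors of 6 mice (11 libraries), non-transformed kidney of 4 of these mice (mice 1, 3, 4 and 5), retro-orbital tumors of 4 (mice 2, 3, 5 and 6) and brain tumors of 3 (mice 1, 2 and 4). Control kidney came from 3 mice (6 libraries) that carry Sglt2-Cre without the fusion allele. Dysmorphic fetal kidney came from 5 Pax8-Cre; ASPSCR1-TFE3 LSL/+ fetuses and control fetal kidney from 3 fetuses labelled Pax8-Cre, a driver active in the whole kidney lineage; the design text allows some of these controls to carry the fusion allele without Cre. Ages are not given in the labels. Libraries of 1 mouse and tissue were summed, so that n is a number of animals, and a kidney tumor or control kidney below stands for the sum of its mouse unless single tumors are named.

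Extracellular matrix is built from collagens, proteoglycans and glycoproteins, and its turnover depends on secreted and membrane-bound metalloproteinases. MMPs and ADAMTS proteases cut matrix proteins or their precursors, the TIMPs block them by binding the active site, and the lysyl oxidases and peroxidasin join collagen chains by chemical crosslinks. In kidney and its tumors these genes are made both by epithelial cells and by fibroblasts, macrophages and vessels.

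Library totals were 80205573 to 121415057 counts, and 79.0 to 84.3% of the counts from 1 to 20 in a library were even, and whether 1 fragment was counted as 2 reads was not tested. The proximal tubule markers summed to 10540 to 11050 CPM (counts scaled to a common library size with edgeR's TMM factors) in control kidney and 10520 to 13510 CPM in non-transformed kidney. Kidney tumors of mice 4 and 5 held 7250 and 6816 CPM of these markers, while the other kidney tumors held 646 to 2332 CPM. Known targets of the MiT/TFE family, to which TFE3 belongs, summed to 217 to 245 CPM in control kidney and 3124 to 8429 CPM in kidney tumor. Retinal markers were at 0.824 to 2.495 CPM in the retro-orbital tumors. Neuron and glia markers were at 38.8, 1671 and 448 CPM in the brain tumors of mice 1, 2 and 4. Dysmorphic fetal kidneys held 42.9 to 820 CPM of proximal tubule markers, below every control fetal kidney (1137 to 1327 CPM), and 2539 to 5824 CPM of skeletal muscle markers against 1072 to 1325 CPM.

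All 54 members had at least 1 count in some library. Mmp1b, Mmp20 and Mmp21 were at or near 0 in every group and passed the filter on low counts in no comparison. Levels of different genes were compared as CPM per kilobase of merged exon. On that scale Timp3 led in control kidney with a mean of 44.5 CPM per kb, followed by Pcolce at 11.7, the protease Adamts1 at 11.5 and Timp2 at 10.03. Timp2 led in all 3 tumor sites, with a mean of 53.8 CPM per kb in kidney tumor, 189 in retro-orbital tumor and 157 in brain tumor. The gelatinase Mmp2 led in both fetal groups, at 27.1 CPM per kb in control and 46.2 in dysmorphic fetal kidney.

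**Figure D1:**
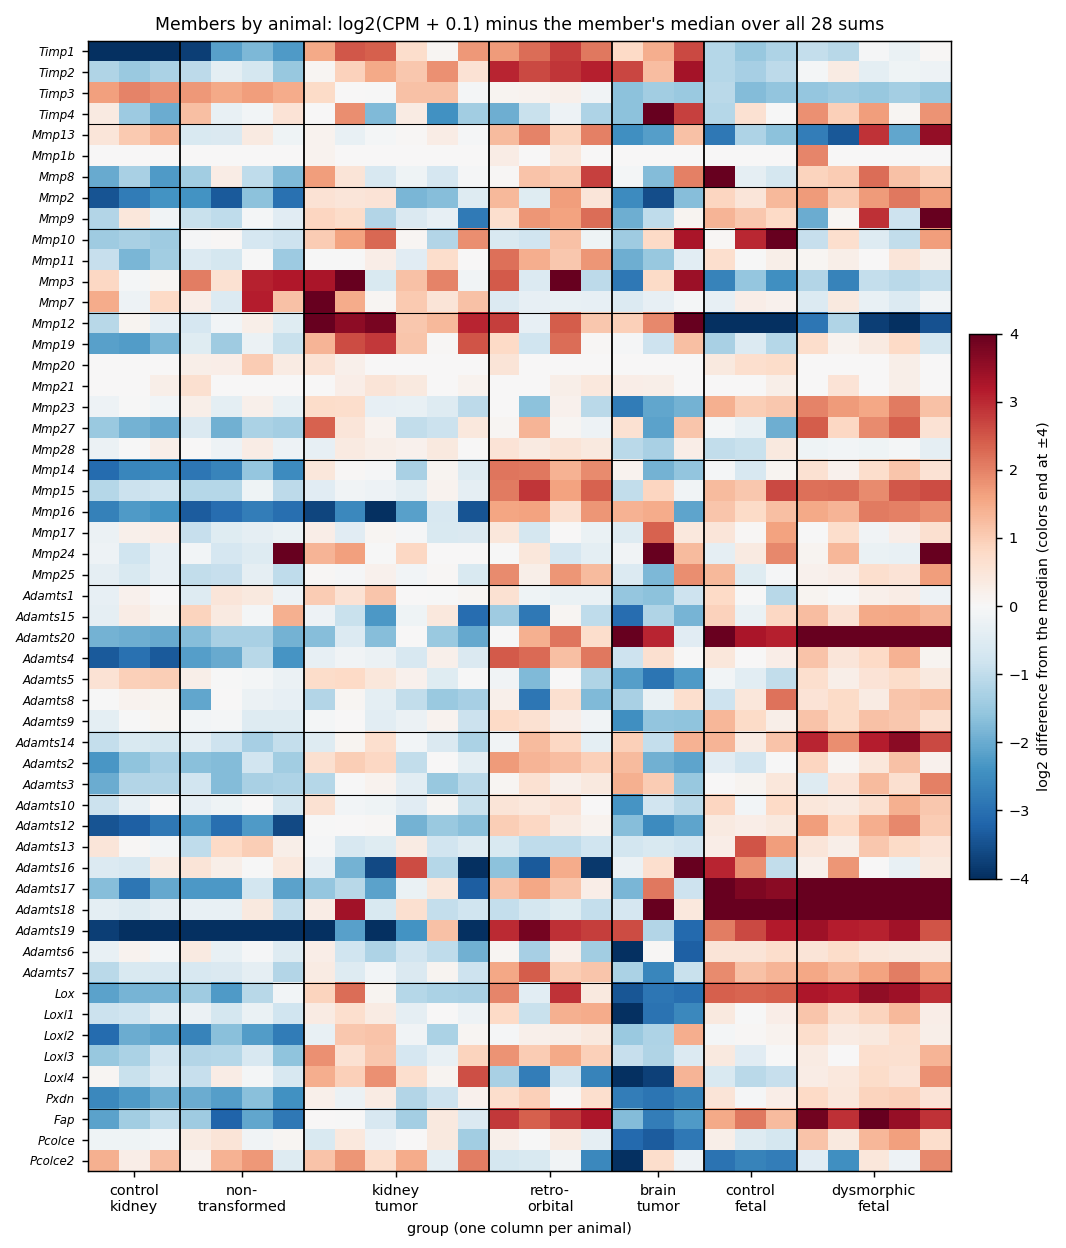
The 54 members (rows, grouped by role) in the 28 animal-and-tissue sums (columns, grouped by tissue), drawn as the log2 of CPM plus a pseudocount of 0.1 less the median of the gene over all columns, with the color scale limited to 4 either way. Timp1 and Mmp19 are higher in every tumor of the 3 sites than in every control kidney, while many ADAMTS members are highest in the fetal kidneys.

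Of the 54 members, 9 MMP genes lie next to each other in a cluster on chromosome 9 (chr9:7272514-7699585, GRCm38.p6, 427.1 kb from the first start to the last end). RefSeq promoters, 250 bases before and 50 bases after a gene's start, were found for 35 members (38 promoters), and 19 members had none to show. The AP-1 letters TGANTCA, where N is any base, read the same on both strands and were present in 7 of the 38 member promoters, or 18.4%, compared to 7.81% of all 32851 mouse promoters. All 7 belonged to genes of this cluster. The other 2 of these genes, Mmp1b and Mmp20, were tested in no comparison, so the promoters of the remaining 5 are shown, as the 120 bases that end just before the annotated start on the plus strand, with the AP-1 letters in capitals. The windows lie at chr9:7502222-7502341 (Mmp10), chr9:7347254-7347373 (the downstream of 2 starts of Mmp12), chr9:7272394-7272513 (Mmp13), chr9:7445702-7445821 (Mmp3) and chr9:7691970-7692089 (the upstream of 2 starts of Mmp7) of GRCm38.p6.
Mmp10: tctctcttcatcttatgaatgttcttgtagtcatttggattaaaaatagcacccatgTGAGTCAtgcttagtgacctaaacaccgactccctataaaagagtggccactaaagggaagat
Mmp12: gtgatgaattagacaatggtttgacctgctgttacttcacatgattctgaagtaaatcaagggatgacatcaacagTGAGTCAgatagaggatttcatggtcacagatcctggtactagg
Mmp13: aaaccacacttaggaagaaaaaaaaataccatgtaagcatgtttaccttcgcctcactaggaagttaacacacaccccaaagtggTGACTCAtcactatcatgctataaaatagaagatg
Mmp3: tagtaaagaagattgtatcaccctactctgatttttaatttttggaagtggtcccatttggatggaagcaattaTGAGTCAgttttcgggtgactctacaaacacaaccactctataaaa
Mmp7: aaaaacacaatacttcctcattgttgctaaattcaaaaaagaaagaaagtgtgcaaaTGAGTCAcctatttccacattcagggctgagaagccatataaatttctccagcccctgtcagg
The first base of the AP-1 letters lay 63 bases before the start in Mmp10 and Mmp7, 44 in Mmp12, 35 in Mmp13 and 46 in Mmp3. Promoters of Mmp8 (chr9:7558309-7558428) and Mmp27 (chr9:7571276-7571395), of the same cluster and strand, held none of these letters and are shown for comparison.
Mmp8: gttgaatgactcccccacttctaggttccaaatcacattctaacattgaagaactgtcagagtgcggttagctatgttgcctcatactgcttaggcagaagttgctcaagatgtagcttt
Mmp27: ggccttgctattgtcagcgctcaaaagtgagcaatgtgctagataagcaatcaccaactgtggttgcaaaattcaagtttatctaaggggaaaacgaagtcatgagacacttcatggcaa
The cluster's 11 promoters were poor in G and C, with a median of 40.7% and a median of 1 CpG in 300 bases, compared to 64.7% and 20 CpG in the other 27 member promoters and 52.7% and 7 CpG in all promoters. The E-box CACGTG, a sequence that MiT/TFE factors bind, was present in 2 member promoters (5.26%, compared to 7.15% of all), the M-box TCATGTG in 1 (2.63%, compared to 3.77%) and the TATA letters TATAAA in 10 (26.3%, compared to 13.6%), each searched on both strands. These matches are a description of the letters, and binding was not measured.

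Kidney tumor was first compared to control kidney, which asks how the module differs between fusion-bearing tumor and kidney without the fusion. Of 51 members tested with edgeR's quasi-likelihood test on all genes (Benjamini-Hochberg adjusted p under 0.05), 18 were higher and 2 lower in tumor. The background was 12.5% of all tested genes called higher and 6.51% called lower, and 25 members were under 0.05 before adjustment. The median log2 fold change of the members was 1.20, compared to 0.05 over all genes. In 21 members (41.2% of those tested, compared to 14.9% of all tested genes) each of the 6 tumor sums was above each of the 3 control sums, and in 2 members (3.92%, compared to 14.8%) each was below. The 20 called members were among these 23. Taken singly and scaled by TMM factors of their own, the 11 tumors and 6 control libraries remained apart in 12 of the 20, while Adamts2, Loxl1, Loxl4, Mmp2, Mmp8, Mmp11, Mmp13 and Pxdn had 1 to 4 single tumors inside the control range. Loxl1 had 4 such tumors, and the lowest single tumor of Pxdn (36.2 CPM) lay below the highest control library (37.2 CPM). Called members came from 10 of the 11 role groups, with none of the 3 genes for Fap and the enhancers. In bulk tissue, more cells of a type and more RNA per cell cannot be told apart.

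The TIMPs changed in opposite directions. Timp1 (chrX:20870166-20874735), an inducible secreted inhibitor, was at 0.395, 0.404 and 0.407 CPM in the control kidneys and at 9.55, 28.2 and 50.4 CPM (lowest, median and highest) in the kidney tumors. Every tumor was over 20 times above the highest control. Its log2 fold change was 6.18 ± 0.65 (SE, edgeR adjusted p = 0.000517).
Timp2 (chr11:118301069-118355740), which blocks MMPs and also helps MMP14 to activate pro-MMP2 at the cell surface, was at 42.0, 34.6 and 40.7 CPM in control kidney and at 102, 196 and 343 CPM in kidney tumor, a log2 fold change of 2.42 ± 0.39 (edgeR adjusted p = 0.00439). Timp3 (chr10:86300372-86349506), the matrix-bound inhibitor that also blocks ADAMTS proteases, went the other way. It was at 322.2, 404.7 and 361 CPM in control kidney and at 96.5, 138 and 233 CPM in kidney tumor (log2 fold change -1.21 ± 0.34, edgeR adjusted p = 0.0359). Timp4 stayed low, with a mean of 0.615 ± 0.827 CPM in tumor (SD, n = 6) and 0.307 ± 0.364 CPM in control (n = 3), and was not called (adjusted p = 0.614).
As a share of the summed TIMP level per kb, Timp3 made up 77.7, 84.2 and 80.3% in the 3 control kidneys and 62.7 to 76.5% in the non-transformed kidneys. In kidney tumors its share was 9.06 to 29.1%, in retro-orbital tumors 4.26 to 6.34% and in brain tumors 1.41 to 5.06%. Timp2 had the largest share in each retro-orbital and brain tumor (62.7 to 88.1%), while the kidney tumors of mice 1 and 2 had more Timp1 than Timp2. Exons of Timp3 share 21.3% of their bases with Syn3 on the opposite strand, and Syn3 itself was not called (log2 fold change 0.61, edgeR adjusted p = 0.109).

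**Figure D2:**
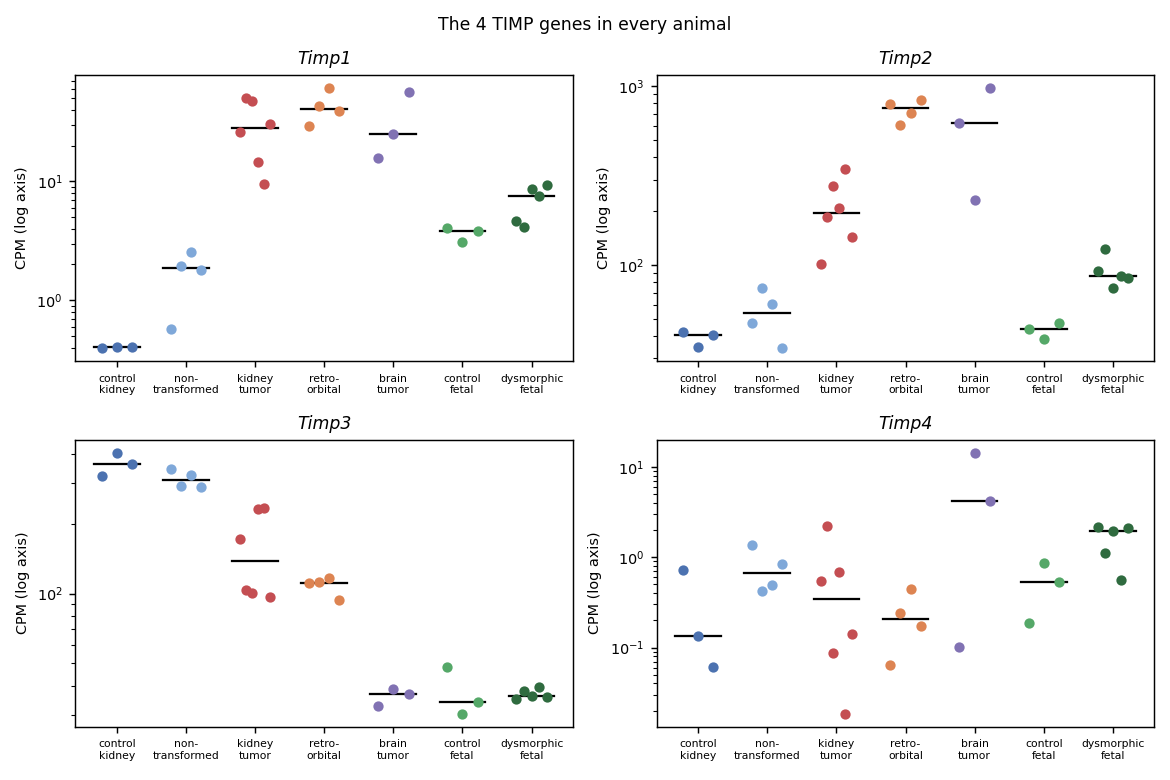
Levels of Timp1, Timp2, Timp3 and Timp4 in CPM on a log axis, with 1 point per animal in each of the 7 groups and a bar at the group median. Timp1 and Timp2 lie higher and Timp3 lower in every kidney tumor than in every control kidney, and Timp3 is lowest in brain tumor and the fetal kidneys.

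Of the 19 MMPs tested, 8 rose in kidney tumor (42.1%, compared to 12.5% of all genes) and 1 fell. Mmp10, or stromelysin-2, had at most 1 count in any control library and was at 0.0186, 0.571 and 1.21 CPM (lowest, middle and highest) in the tumors. With 3 counts taken as the floor of an animal sum, on the same TMM scale, it was at least 41.97-fold higher on average. The fitted log2 fold change of 7.26 depends on the prior count (edgeR adjusted p = 0.014). Mmp12, the macrophage elastase, was at 3.46, 8.13 and 5.95 CPM in control kidney and at 16.0, 77.2 and 133 CPM in kidney tumor (log2 fold change 3.59 ± 0.79, edgeR adjusted p = 0.0157).
Mmp19, a secreted MMP with broad matrix substrates, was at 0.772, 0.746 and 1.02 CPM in control kidney and at 4.04, 16.4 and 28.03 CPM in kidney tumor. The groups were apart by a factor of about 4 at their nearest points, with a log2 fold change of 4.23 ± 0.67 (edgeR adjusted p = 0.00412). The opposite-strand gene Tmem198b shares 22.3% of the exon bases of Mmp19 and had a log2 fold change of 0.74 (adjusted p = 0.0539). Mmp27 rose from a low level (control 0.0847, 0.0404 and 0.0260 CPM, tumors 0.163 to 2.58 CPM, log2 fold change 3.92 ± 1.07, edgeR adjusted p = 0.0332). Mouse 1 held the highest tumor value, and the call was kept in 5 of 9 fits that leave out 1 animal.
Mmp2, the gelatinase of fibroblasts, was at 4.34, 6.81 and 9.16 CPM in control kidney and at 13.6, 51.1 and 71.9 CPM in kidney tumor (log2 fold change 2.73 ± 0.66, edgeR adjusted p = 0.0221). The other gelatinase, Mmp9, was at 0.405, 1.47 and 0.945 CPM in control kidney and 0.0609 to 1.95 CPM in kidney tumor, fully overlapping (log2 fold change 0.01, adjusted p = 0.997). Mmp14 (chr14:54431612-54445364), the membrane-type protease that activates pro-MMP2, was at 5.99, 8.43 and 8.69 CPM in control kidney and at 21.2, 51.8 and 71.0 CPM in kidney tumor (log2 fold change 2.63 ± 0.38, edgeR adjusted p = 0.00272). It was the only 1 of the 6 membrane-type MMPs called, and held 76.0 to 92.4% of their summed level per kb in kidney tumor compared to 56.4 to 59.2% in control kidney.
The collagenases split. Mmp8, the neutrophil collagenase, rose from 0.132, 0.278 and 0.0954 CPM to 0.484, 0.772 and 2.88 CPM (log2 fold change 2.70 ± 0.73, edgeR adjusted p = 0.0329), and Mmp13 fell from 3.67, 5.47 and 6.89 CPM to 2.09, 2.57 and 3.18 CPM (log2 fold change -1.04 ± 0.25, edgeR adjusted p = 0.0219). Among the 9 genes of the chromosome 9 cluster, Mmp8, Mmp10, Mmp12 and Mmp27 rose, Mmp13 fell, and Mmp3 and Mmp7 were not called (log2 fold changes 2.49 ± 1.18 and 2.58 ± 1.61). The 5 genes whose AP-1 promoters are printed thus included 2 that rose, 1 that fell and 2 not called, and both printed promoters without the letters were of genes that rose.

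Of the 19 ADAMTS members tested, 3 rose and none fell, and these 15.8% were close to the 12.5% of all genes called higher. Adamts4 (chr1:171250421-171260637), which cuts the proteoglycan aggrecan, was at 0.193, 0.278 and 0.191 CPM in control kidney and at 1.84, 2.38 and 3.35 CPM in kidney tumor. It had the lowest adjusted p of the module (log2 fold change 3.44 ± 0.34, edgeR adjusted p = 0.000357) and the 6 tumor sums lay within a factor of 2 of each other, while the single tumors of mouse 1 were at 3.74 and 0.999 CPM, or 3.74-fold apart. Adamts5, the other main aggrecan-cutting member, was at 37.6, 49.0 and 49.6 CPM in control kidney and 17.9 to 44.0 CPM in kidney tumor and was not called. Adamts2, which removes the N-propeptide of collagen I, rose from 5.44, 8.89 and 10.8 CPM to 13.9, 35.4 and 54.99 CPM (log2 fold change 2.04 ± 0.47, edgeR adjusted p = 0.0184). Adamts12 rose from 2.92, 3.35 and 4.44 CPM to 8.75, 22.0 and 34.1 CPM (log2 fold change 2.59 ± 0.56, edgeR adjusted p = 0.0151).

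Of the 6 crosslinking enzymes 5 rose and none fell, and the median log2 fold change of the 6 was 2.02. Loxl2 (chr14:69609068-69695834), a lysyl oxidase that acts on basement membrane collagen, was at 0.706, 1.64 and 1.49 CPM in control kidney and at 2.72, 6.56 and 15.0 CPM in kidney tumor (log2 fold change 2.69 ± 0.59, edgeR adjusted p = 0.0159). Pxdn (chr12:29937608-30017658), which forms the sulfilimine bonds of collagen IV, was at 24.6, 30.4 and 38.3 CPM in control kidney and at 65.8, 146 and 185 CPM in kidney tumor (log2 fold change 2.08 ± 0.36, edgeR adjusted p = 0.00637). Loxl1, Loxl3 and Loxl4 were called with log2 fold changes of 0.84 to 1.96, and the stromelysin-3 gene Mmp11, outside this group, with one inside that range. Lox was the exception. Its 3 controls (2.73, 3.36 and 3.30 CPM) lay below all 6 tumors (4.96, 9.47 and 58.1 CPM), but it was not called (log2 fold change 2.52 ± 0.89, adjusted p = 0.0744). Fap and both procollagen C-proteinase enhancers overlapped between the groups.

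**Figure D3:**
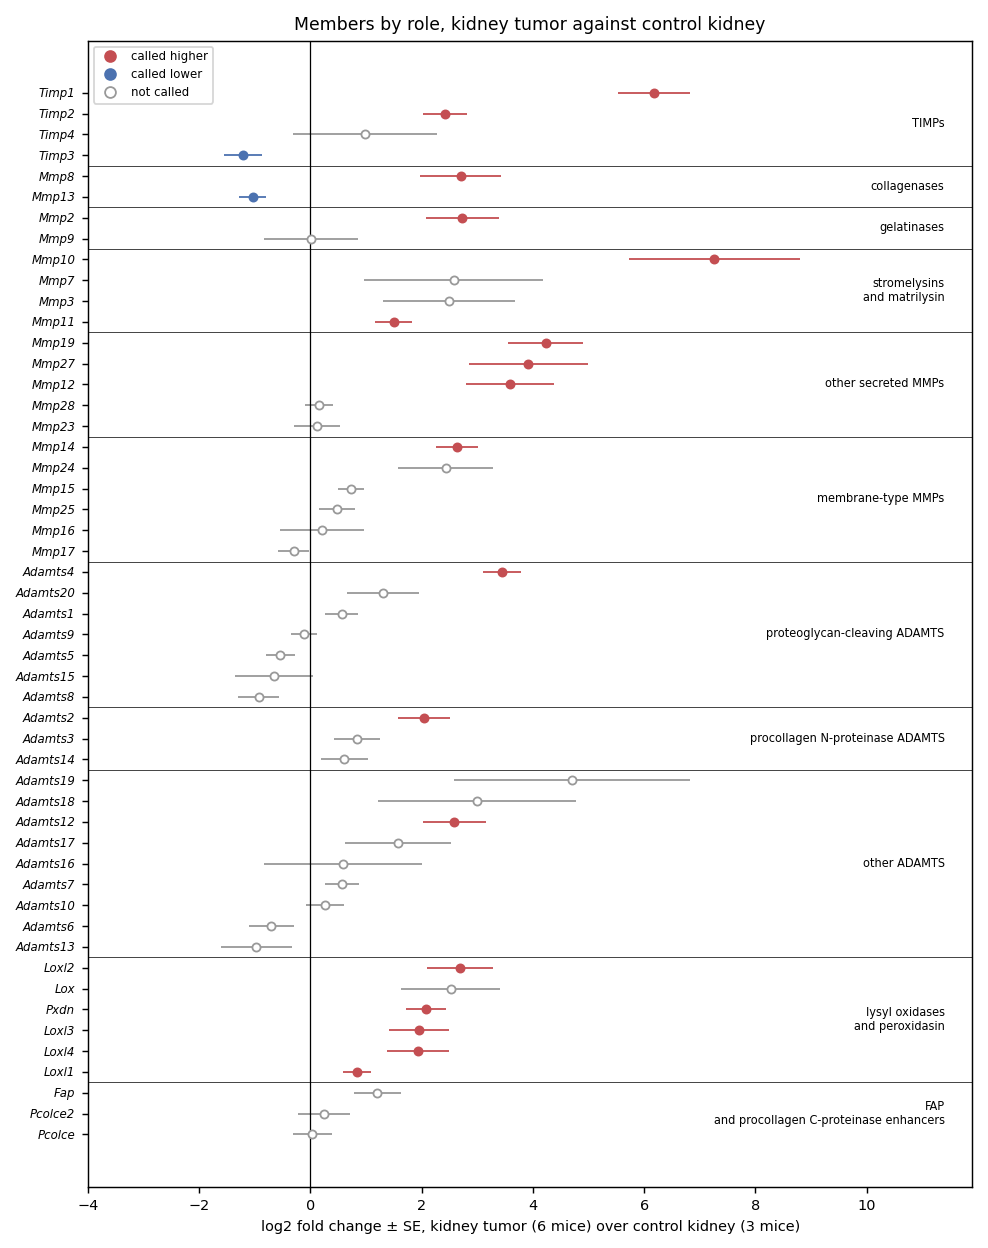
Log2 fold change of each tested member in kidney tumor compared to control kidney, with bars of 1 standard error (edgeR), grouped by role and colored by whether the adjusted p was under 0.05. The 18 members called higher reach from 0.84 (Loxl1) to 7.26 (Mmp10), and Timp3 and Mmp13 are the 2 called lower.

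Tumors of mice 4 and 5, which held the most proximal tubule markers, also held the lowest Timp1 (14.6 and 9.55 CPM), Mmp2 (13.6 and 14.8 CPM) and Mmp12 (16.0 and 18.7 CPM) and the highest Timp3 (233 CPM in both). Other members did not follow this order. Timp2 was at 207 and 343 CPM in mice 4 and 5, with mouse 5 the highest of all. Fap was lowest in mouse 4 (4.78 CPM) and highest in mouse 5 (16.5 CPM). Without these 2 mice, 22 members were called. Leaving out any 1 control mouse instead brought the count to 8, 6 and 6 (without control mice 1, 2 and 3), and 6 members were called in all 9 fits that leave out 1 animal: Adamts4, Mmp14, Mmp19, Pxdn, Timp1 and Timp2. Timp3 was called in 2 of these 9. Of the other cell markers, some were apart between kidney tumor and control kidney and others overlapped. Over all genes 12.5% were called higher and 6.51% lower. Macrophage markers, with 3 of 6 called higher and none at 0, summed to 212 to 668 CPM in kidney tumor compared to 143 to 170 CPM in control kidney. Neutrophil markers were at 10.7 to 31.9 CPM compared to 3.37 to 5.46 CPM, with 4 of 5 tested called higher and Camp and Ngp at no more than 3 counts in each control library. Fibroblast markers were at 318 to 670 CPM compared to 233 to 376 CPM, with 1 of 6 called higher. Smooth muscle and pericyte markers were at 264.2 to 734 CPM compared to 329 to 432 CPM, with 2 of 6 called higher, nephron progenitor markers at 10.3 to 371 CPM compared to 7.02 to 8.68 CPM, with 2 of 4 tested higher and Six2 at no more than 3 counts in each control library, and neuron and glia markers at 16.3 to 98.4 CPM compared to 15.3 to 20.5 CPM, with 1 of 6 higher. Nephron and other markers were lower in the tumors without overlap, none of them called. Besides the proximal tubule markers given above, those of distal nephron and collecting duct were at 20.8 to 5382 CPM compared to 5751 to 6601 CPM, those of podocytes at 71.9 to 233 CPM compared to 309.5 to 366 CPM, and those of osteoclasts, of which Atp6v0d2 held the most in control kidney, at 15.4 to 66.2 CPM compared to 78.5 to 121 CPM. Of 4 retinal markers tested 1 was called lower, with sums of 0.569 to 1.24 CPM compared to 0.645 to 0.997 CPM. The part of these markers in the results was not tested.

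Kidney tumor was then compared to non-transformed kidney of the same line, which carries the same alleles. Of 51 members tested, 14 were higher and 1 lower, against backgrounds of 12.1% and 5.02%, and the median log2 fold change was 0.69 compared to -0.02 over all genes. In 10 members (19.6%, compared to 10.9% of all tested genes) every tumor sum was above every non-transformed kidney, and in Timp3 alone (1.96%, compared to 6.82%) every sum was below. Timp1 was at 0.568, 1.92, 2.54 and 1.78 CPM in the non-transformed kidneys of mice 1, 3, 4 and 5, which is above control kidney and below every tumor (log2 fold change of tumor 4.04 ± 0.59, edgeR adjusted p = 0.00199). Mmp12 was at 4.72, 6.99, 8.97 and 5.42 CPM in these kidneys, close to control and below every tumor (3.38 ± 0.64, edgeR adjusted p = 0.00692).
Loxl2 (0.978, 2.03, 1.35 and 0.890 CPM) and Mmp19 (2.75, 1.39, 3.25 and 2.06 CPM) were likewise below the tumor sums of all 6 mice, with log2 fold changes of 2.60 ± 0.50 and 2.70 ± 0.54 (edgeR adjusted p = 0.00764 and 0.00938). Fap (chr2:62500943-62574075), a serine protease of activated fibroblasts, was at 4.61, 1.28, 2.89 and 1.64 CPM in non-transformed kidney and 4.78 to 16.5 CPM in kidney tumor, without overlap (1.95 ± 0.46, edgeR adjusted p = 0.0183). The remaining called members rose by log2 fold changes of 1.62 to 2.29 and Timp3 fell (-1.03 ± 0.30, edgeR adjusted p = 0.0421). In Adamts2, Loxl3, Loxl4 and Mmp2 the groups overlapped, with 5 of 6 tumors above the non-transformed range in Adamts2 and 4 of 6 in Mmp2. Among the 11 single tumors, Loxl2, Mmp12, Timp1 and Timp3 remained apart from the 4 non-transformed kidneys, while Adamts4, Adamts12, Fap, Mmp14, Mmp19, Pxdn and Timp2 each had 1 tumor inside their range. In Mmp19 it was a tumor of mouse 4 at 2.71 CPM, below the highest non-transformed kidney at 3.11 CPM on the scale of single libraries.
Samples of 1 mouse are paired by origin. With the mouse as a block, which uses the 4 mice that gave both tissues, 2 members remained called (Timp1 and Loxl2) and 20 were under 0.05 before adjustment. Without non-transformed kidney of mouse 1, 3 or 5 the unblocked count was 9, 8 and 8. In all 10 fits that leave out 1 animal 8 members stayed called, while Timp3 was called in 2. Macrophage markers had 4 of 6 called higher in tumor than in these kidneys (114 to 224 CPM) and none at 0. Nephron progenitor markers had 2 of 4 tested called higher, fibroblast, smooth muscle and pericyte, and neuron and glia markers 1 of 6 each, endothelial markers 1 of 5 and neutrophil markers 1 of 4 tested, and podocyte markers had 1 of 4 called lower (71.9 to 233 CPM compared to 259 to 368 CPM). Markers of distal nephron and collecting duct (5664 to 7096 CPM in these kidneys) and of osteoclasts (67.7 to 96.2 CPM) were also lower in every tumor, none of them called. The part of these markers in the results was not tested.

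Non-transformed kidney was compared to control kidney to see whether kidney outside the tumors differed. By edgeR 0 of 47 members tested were called, compared to 0.00952% of all genes called higher. Before adjustment 8 were under 0.05, and DESeq2 called 7, without its share of all genes given here. The smallest p was that of Adamts5, at 29.4, 24.6, 23.7 and 21.1 CPM in non-transformed kidney compared to 37.6, 49.0 and 49.6 CPM in control kidney (log2 fold change -0.85 ± 0.14, edgeR adjusted p = 0.173). Timp1 was above every control in each of the 4 non-transformed kidneys (log2 fold change 2.11 ± 0.48, edgeR adjusted p = 0.202). Other members were apart too. Mmp19, with values given above, was above every control, and Mmp13 (1.66 to 3.29 CPM compared to 3.67 to 6.89 CPM) was below every control. How many of all genes were apart in this comparison was not counted. MiT/TFE targets were at 354 to 672 CPM in these kidneys compared to 217 to 245 CPM in control, and the part of tumor cells in them was not tested.

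Kidney tumors of 1 mouse could differ widely. In 5 mice with 2 sequenced kidney tumors, 244 of 270 pairs of values had over 3 counts in both tumors, and 81 of these were over 2-fold apart, with a median of 1.6-fold. Timp2 was at 360 and 56.2 CPM in the tumors of mouse 4, or 6.40-fold apart. Adamts16, an ADAMTS of kidney and gonad, was at 9.12 and 0.453 CPM in those of mouse 1 (20.1-fold) and at 66.0 and 5.64 CPM in those of mouse 4 (11.7-fold). Timp1 was within 1.16-fold in mice 3, 4 and 6 and 3.40-fold and 3.65-fold apart in mice 1 and 2. These are single libraries, without a replicate of either tumor.

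Retro-orbital tumor was compared to kidney tumor to ask how the module differs with tumor site. Of 49 members tested, 11 were higher and 3 lower, against backgrounds of 8.26% and 9.45%, with a median log2 fold change of 0.57 compared to -0.09. In 12 members (24.5%, compared to 8.69% of all tested genes) every retro-orbital tumor was above every kidney tumor sum, and in 2 (4.08%, compared to 7.33%) every one was below. Of the 6 membrane-type MMPs, 4 were called higher. Mmp16 (chr4:17852893-18119145) was at 42.4, 43.3, 22.3 and 48.7 CPM in the retro-orbital tumors of mice 2, 3, 5 and 6 and at 0.719 to 9.05 CPM in kidney tumor (log2 fold change 3.66 ± 0.69, edgeR adjusted p = 0.00684). Mmp15 was at 11.63, 19.8, 8.32 and 14.1 CPM compared to 1.90 to 2.93 CPM (2.51 ± 0.25, edgeR adjusted p = 0.00116). Mmp14 was at 231, 225, 136 and 194 CPM compared to 21.2 to 71.0 CPM (1.97 ± 0.29, edgeR adjusted p = 0.00276). All 3 were separate between the sites.
Fap was at 88.8, 65.6, 87.6 and 118 CPM in retro-orbital tumor, above the highest kidney tumor at 16.5 CPM (3.04 ± 0.32, edgeR adjusted p = 0.00139). Adamts4 (6.79 to 16.4 CPM, log2 fold change 2.31 ± 0.27, edgeR adjusted p = 0.00139) and Timp2 (604 to 835 CPM, 1.75 ± 0.30, edgeR adjusted p = 0.00475) were also above every kidney tumor. Adamts20, which has a role in pigment cell migration, was called with 3 of 4 tumors above the kidney range. Adamts7, Mmp11, Mmp13 and Mmp25 were higher by 1.51 to 1.80, without overlap.
Loxl4 fell to 0.853, 0.243, 1.26 and 0.266 CPM, below the 2.42 to 13.8 CPM of kidney tumor (log2 fold change -3.33 ± 0.68, edgeR adjusted p = 0.00901). Matrilysin, Mmp7, had at most 2 counts in any retro-orbital library and was at 0.0541 to 4.93 CPM in kidney tumor, with the highest value in mouse 1. It was at least 34.87-fold lower with the floor of 3 counts, a mean set largely by that mouse, and its fitted log2 fold change of -6.16 depends on the prior count (edgeR adjusted p = 0.0329). Pcolce2 was called lower (-2.14 ± 0.56) with 3 of 4 below the kidney range. Against the 11 single kidney tumors Loxl4, Mmp7 and Mmp25 overlapped too, and 9 of the 14 called members remained apart. With the mouse as a block, using the 4 mice with both tumors, 11 members were called, all higher. Of the 14 above, 8 were kept (Adamts4, Adamts7, Fap, Mmp13, Mmp14, Mmp15, Mmp16 and Timp2), 6 were lost (Adamts20, Loxl4, Mmp7, Mmp11, Mmp25 and Pcolce2), and Adamts2, Adamts12 and Pxdn were called only with the block. Fibroblast markers were at 1085 to 1682 CPM in retro-orbital tumor compared to 318 to 670 CPM, with 2 of 6 called higher, and endothelial markers at 877 to 1346 CPM compared to 359 to 624 CPM, with 3 of 5 called higher. Neutrophil markers were at 40.8 to 132 CPM compared to 10.7 to 31.9 CPM, with 3 of 6 called higher. Smooth muscle and pericyte markers were at 782 to 833 CPM compared to 264.2 to 734 CPM, with 2 of 6 called higher, and osteoclast markers at 15.2 to 32.1 CPM compared to 15.4 to 66.2 CPM, with 1 of 5 called lower. Cartilage and bone markers were at 0.586 to 4.46 CPM compared to 0.233 to 12.9 CPM, with 1 of 3 tested called higher. Nephron progenitor markers were at 12.7 to 25.7 CPM compared to 10.3 to 371 CPM, with 1 of 4 tested higher and 1 lower, and 1 of 4 tested retinal markers was higher (0.824 to 2.495 CPM compared to 0.569 to 1.24 CPM). Of these markers Rcvrn of the retina was at no more than 3 counts in each kidney tumor library, and the part of the lists in the results was not tested.

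Brain tumor was compared to kidney tumor in the same way, and Lox, Loxl1, Pcolce and Pxdn were lower there, while Loxl2, Loxl3 and Loxl4 were not called. Of 50 members tested, 1 was higher and 10 lower, against backgrounds of 4.54% and 4.2%, with a median log2 fold change of -0.58 compared to 0.03. In 12 members (24%, compared to 8.73% of all tested genes) every brain tumor was below every kidney tumor sum, and in 0 (compared to 6.21%) every one was above. Loxl1, a lysyl oxidase of elastic fibers, was at a mean of 1.61 ± 1.09 CPM in the brain tumors of mice 1, 2 and 4 (SD, n = 3) and at 12.0 to 24.9 CPM in kidney tumor (log2 fold change -3.41 ± 0.60, edgeR adjusted p = 0.016). Lox was at 1.06, 1.56 and 1.43 CPM compared to 4.96 to 58.1 CPM (-3.72 ± 0.99, edgeR adjusted p = 0.0491). Pcolce, which speeds removal of the collagen C-propeptide, was at 5.74, 4.84 and 6.75 CPM compared to 19.0 to 66.2 CPM (-2.99 ± 0.45, edgeR adjusted p = 0.0106). In all 3 genes the sites did not overlap.
Pxdn was at 21.8, 19.6 and 23.3 CPM (-2.59 ± 0.35, edgeR adjusted p = 0.00746) and Adamts5 at 5.39, 3.21 and 5.15 CPM (-2.76 ± 0.35, edgeR adjusted p = 0.00603), each below all kidney tumors. Timp3, at 32.8, 38.8 and 36.9 CPM, had its lowest level of the adult tissues here (-2.11 ± 0.40, edgeR adjusted p = 0.0207). Fap, Mmp23, Adamts1 and Adamts9 were lower by 1.60 to 2.40 on the log2 scale, without overlap. Adamts20 was the only member called higher (4.87 ± 0.96, edgeR adjusted p = 0.0224), and its values of 22.8, 7.71 and 0.585 CPM put 2 of 3 tumors above the kidney range. With the mouse as a block, using 3 mice, 0 members were called by edgeR and 11 were under 0.05 before adjustment, while DESeq2 without the block called 18. Without the kidney tumors of mouse 1 the count was 7. Adamts5, Adamts9, Loxl1, Pcolce and Pxdn were called in all 9 fits that leave out 1 animal. Lox and Fap were called in 2 of these 9.
The 3 brain tumors differed strongly among themselves. Adamts16 was at 4.89, 9.32 and 339 CPM, Mmp12 at 14.8, 28.7 and 165 CPM and Timp2 at 624.8, 229.9 and 981 CPM in mice 1, 2 and 4, all highest in mouse 4. Timp4, at 0.103, 14.3 and 4.17 CPM, Mmp24, at 0.0718, 7.63 and 0.357 CPM, and Mmp17, at 1.38, 10.7 and 2.70 CPM, were highest in mouse 2, whose tumor held the most neuron and glia markers (1671 CPM). Adamts2 (67.0 CPM compared to 7.25 and 6.36) and Mmp14 (57.2 CPM compared to 14.0 and 17.4) were highest in mouse 1, with 38.8 CPM of those markers. Fibroblast markers had 1 of 6 called lower in brain than in kidney tumor. Their sums, at 405, 579 and 2050 CPM compared to 318 to 670 CPM, were inside the kidney tumor range or, in mouse 4, above it. Endothelial markers had 2 of 5 called lower (197, 237 and 1201 CPM compared to 359 to 624 CPM), smooth muscle and pericyte markers 1 of 6 lower (126 to 264.2 CPM compared to 264.2 to 734 CPM), neutrophil markers 1 of 5 tested lower (5.13 to 13.0 CPM compared to 10.7 to 31.9 CPM, with Camp at no more than 3 counts in each brain library), podocyte markers 1 of 4 lower (39.6 to 50.4 CPM compared to 71.9 to 233 CPM), and neuron and glia markers 2 of 6 higher. The part of these markers in the results was not tested.

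Brain and retro-orbital tumors were compared directly as the 2 sites outside the kidney. Of 48 members tested, 0 were higher and 8 lower in brain tumor by edgeR, against edgeR backgrounds of 0.395% and 1.34%. Before adjustment 22 were under 0.05, and DESeq2 called 23, without its share of all genes given here. The median log2 fold change was -1.21 compared to 0.04. Fap differed most (-5.10 ± 0.36, edgeR adjusted p = 0.00982), at 3.70, 1.75 and 2.49 CPM in brain tumor. Pxdn (-3.41 ± 0.25, edgeR adjusted p = 0.00982) and Pcolce (-3.18 ± 0.26, edgeR adjusted p = 0.013) followed. Mmp11, Adamts12, Loxl3, Adamts9 and Timp3 were lower by 1.59 to 2.90 on the log2 scale, and none of the 8 overlapped. In all, 22 members (45.8%, compared to 10.5% of all tested genes) were lower in every brain tumor than in every retro-orbital tumor, and 0 (compared to 8%) were higher. Leaving out 1 tumor moved the count between 0 (without the retro-orbital tumor of mouse 2, with 22 under 0.05 before adjustment) and 15 (without the brain tumor of mouse 4), and no member was called in all 7 such fits. Against retro-orbital tumor, endothelial markers had 4 of 5 called lower in brain tumor (median log2 fold change -2.71), smooth muscle and pericyte markers 2 of 6 lower (126 to 264.2 CPM compared to 782 to 833 CPM), podocyte markers 2 of 4 lower (39.6 to 50.4 CPM compared to 145 to 190 CPM), and fibroblast markers none of 6 called (median -2.97). Nephron progenitor markers summed to 28.3 to 721 CPM in brain tumor compared to 12.7 to 25.7 CPM, with 1 of 5 called lower, and neutrophil markers to 5.13 to 13.0 CPM compared to 40.8 to 132 CPM, with none of 5 tested called. Their part in the results was not tested. Both sites were compared to the same kidney tumors, so the 3 site comparisons are not independent.

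**Figure D4:**
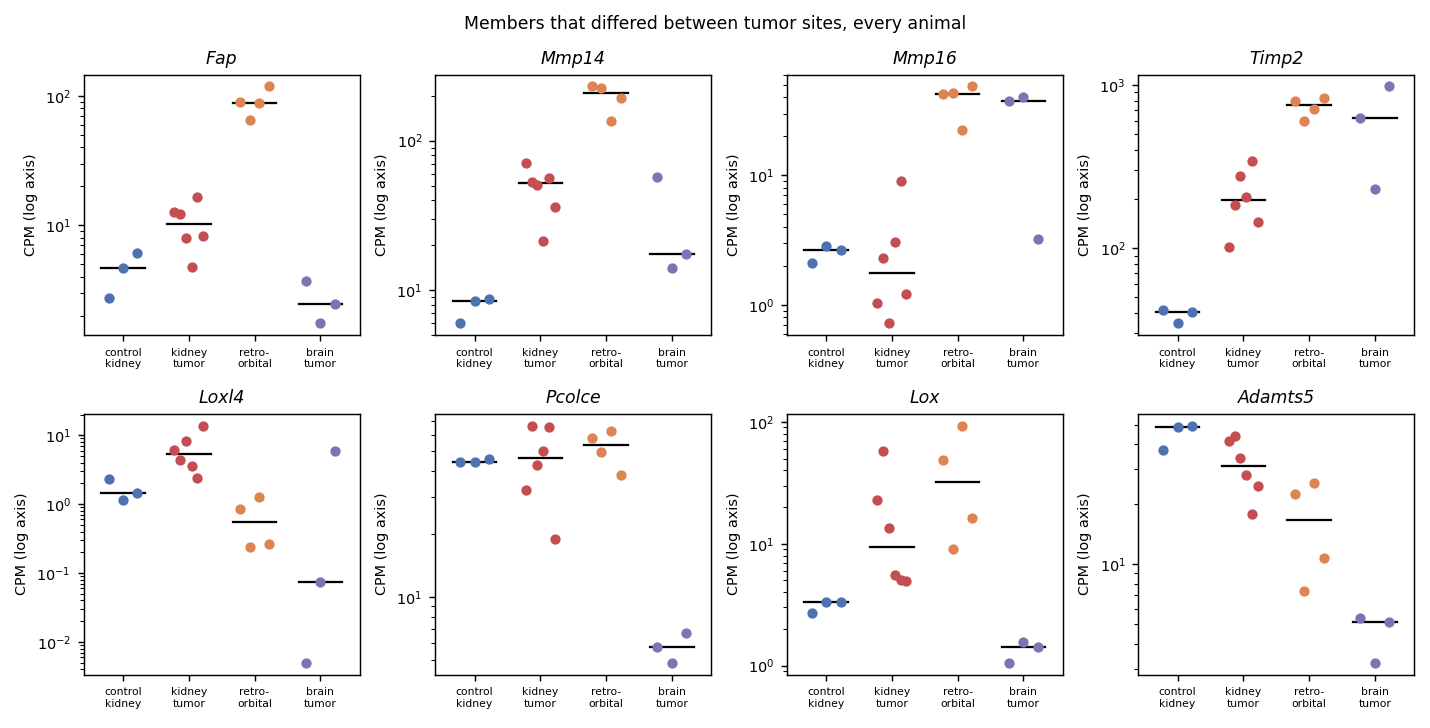
CPM on a log axis of 8 members called between tumor sites (Fap, Mmp14, Mmp16, Timp2, Loxl4, Pcolce, Lox and Adamts5), with 1 point per mouse for control kidney and kidney, retro-orbital and brain tumor, a bar at each median, and values at 0 drawn at 0.005. Fap and Mmp14 lie higher in every retro-orbital tumor than in every kidney tumor, and Pcolce, Lox and Adamts5 lie lower in every brain tumor.

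In the fetal model, dysmorphic kidneys were compared to control fetal kidneys to ask how the module differs with the fusion in the developing kidney. Of 50 members tested, 4 were called higher and none lower by edgeR, against edgeR backgrounds of 2.4% and 0.269%. Before adjustment 25 were under 0.05, and DESeq2 called 15, without its share of all genes given here. The median log2 fold change was 0.69 compared to -0.04 over all genes. Lox, the founding lysyl oxidase, was at 65.0, 62.1 and 64.9 CPM in control fetal kidney and at 116, 109.8, 144, 130.1 and 95.2 CPM in dysmorphic kidney (log2 fold change 0.86 ± 0.14, edgeR adjusted p = 0.035). Timp2 was at 43.6, 38.6 and 47.4 CPM compared to 92.8, 123, 74.5, 86.4 and 84.6 CPM (1.06 ± 0.18, edgeR adjusted p = 0.0364). In both genes every dysmorphic kidney was above every control.
Fap was at 35.5, 53.9 and 29.8 CPM in control and at 181, 95.1, 226, 141 and 93.3 CPM in dysmorphic fetal kidney (1.85 ± 0.36, edgeR adjusted p = 0.0412). Adamts20 was at 14.4, 8.96 and 7.93 CPM compared to 40.6, 19.6, 55.5, 50.5 and 31.7 CPM (1.88 ± 0.38, edgeR adjusted p = 0.0441). Again no value overlapped. A further 13 members were higher in all 5 dysmorphic kidneys than in all 3 controls without passing the adjusted threshold, which makes 17 of 50 (34.0%, compared to 10.4% of all tested genes). In the other direction 0 members were apart (compared to 4.25%). Among them were Adamts14 (1.94 ± 0.43, adjusted p = 0.0566), Adamts5 (0.96 ± 0.22, adjusted p = 0.0595) and Loxl4 (1.77 ± 0.42, adjusted p = 0.0688). Timp1 was at 4.02, 3.08 and 3.80 CPM in control and 4.64, 4.10, 8.67, 7.49 and 9.36 CPM in dysmorphic kidney, a log2 fold change of 0.88 ± 0.32 (adjusted p = 0.178).
Collagenase-3, Mmp13, was at 19.7 and 30.1 CPM in dysmorphic fetuses 3 and 5 and at 0.154 to 0.530 CPM in the other 3, with controls at 0.267, 1.05 and 0.764 CPM. Mmp9 was also highest in these fetuses, at 8.61 and 19.6 CPM compared to 0.186 to 1.10 CPM in the other 3. Its controls lay between, at 2.86, 2.29 and 1.91 CPM. Osteoclast markers were at 15.5 and 27.6 CPM in fetuses 3 and 5 and at 5.06, 7.55 and 4.89 CPM in fetuses 1, 2 and 4. In control they were at 17.2 to 24.6 CPM, with none of 5 called. Cartilage and bone markers were at 845 and 2023 CPM in fetuses 3 and 5 and at 3.26, 54.4 and 275 CPM in fetuses 1, 2 and 4, compared to 6.56 to 16.8 CPM in control, none of 6 called. Mmp8 stood at 19.6 CPM in control fetus 1, whose neutrophil markers summed to 94.2 CPM, compared to 0.625 and 0.477 CPM in the other controls.
The 4 calls moved with the fetuses in the fit. Without fetuses 3 and 5, which was chosen after seeing the data, 0 members were called by edgeR and 23 were under 0.05 before adjustment. With the prefix of the sample titles taken as the litter, which no label states, and used as a block, 0 were called and 25 were under 0.05. Leaving out 1 fetus gave 0 calls in 6 of 8 fits (17 to 23 under 0.05 before adjustment), 9 without dysmorphic fetus 2 and 7 without dysmorphic fetus 5. Fibroblast markers were at 1715 to 3719 CPM in dysmorphic kidney compared to 869 to 1125 CPM, with 1 of 6 called higher and none at 0, and skeletal muscle markers had 5 of 6 called higher. Macrophage markers were at 271 to 513 CPM compared to 140 to 179 CPM, with 2 of 6 called higher. Epidermis markers were at 1308 to 4217 CPM compared to 9.94 to 689 CPM, without overlap and with none of 5 called, and podocyte markers at 66.3 to 140 CPM compared to 185 to 252 CPM, with 1 of 4 called lower. MiT/TFE targets were at 146 to 691 CPM compared to 87.8 to 112 CPM, with 1 of 5 called higher. Kidney cells and surrounding tissue cannot be told apart in these samples, and the part of these markers was not tested.

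**Figure D5:**
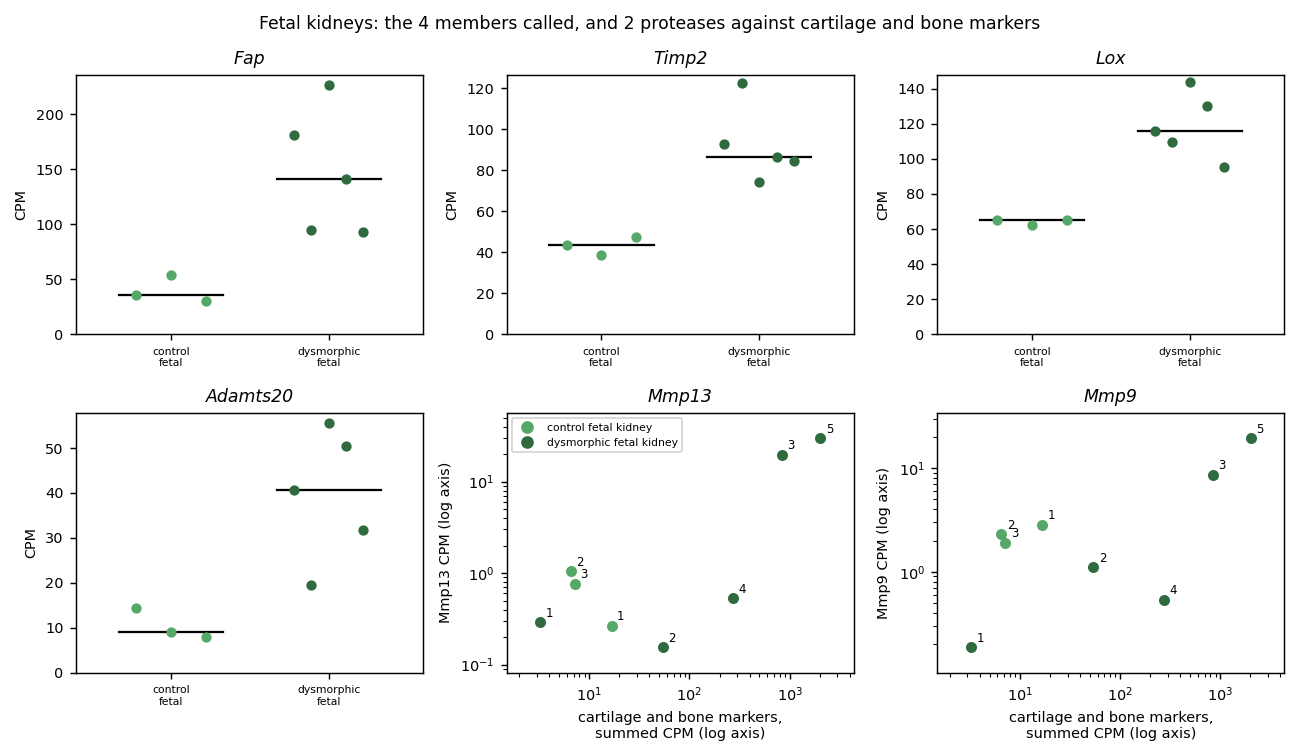
The 4 called members in the 3 control and 5 dysmorphic fetal kidneys as CPM on a linear axis, with 1 point per fetus and a bar at each median, and Mmp13 and Mmp9 as CPM against the summed CPM of the cartilage and bone markers, both on log axes with fetuses numbered. Lox, Timp2, Fap and Adamts20 are higher in every dysmorphic kidney, while Mmp13 and Mmp9 are highest in dysmorphic fetuses 3 and 5, which also hold the most of these markers.

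Whether the difference from control differed between the adult tumors and the fetal kidneys was tested as an interaction over the 4 groups. Of 51 members, 9 had a larger log2 fold change in kidney tumor and 1 a smaller one, against backgrounds of 6.87% and 2.07%, with a median difference of 0.50 compared to 0.16 over all genes. Timp1 differed by 5.35 ± 0.67 (edgeR adjusted p = 0.00011) and Adamts4 by 2.88 ± 0.42 (edgeR adjusted p = 0.000577). Loxl2, Mmp11, Mmp14, Mmp19, Pxdn and Timp2 differed by 1.38 to 2.97. Mmp10 had the largest fitted difference of 10.39, which depends on the prior count, since its control kidneys were at or near 0, and its control fetal kidneys were at 0.173, 2.07 and 4.11 CPM. Adamts5 had a smaller change in tumor (-1.46 ± 0.37, edgeR adjusted p = 0.0254). Age, tissue and Cre driver all differ between the models and cannot be told apart from this difference. Without control kidney 1, 2 or 3 the count was 5, 4 and 6, and without control fetal kidney 1 or 3 it was 6.

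Genes around the module were read from lists of related function. In kidney tumor compared to control kidney, genes of plasminogen activation that rose included the activator Plat (380.5 ± 297 CPM compared to 65.6 ± 16.8 CPM), the inhibitor Serpine2 (log2 fold change 1.63) and the receptor Plaur (1.24). The membrane proteases of the ADAM family had 3 of 9 called higher, led by Adam33, which was at 235 ± 122 CPM in tumor and 1.04 ± 0.275 CPM in control (log2 fold change 7.80 ± 0.65, edgeR adjusted p = 0.000211). Cd44, a receptor that holds MMPs at the cell surface, was the only 1 of 8 surface regulators called (4.47 ± 0.74). That count is close to the 12.5% of all genes called higher.
Of the 14 matrix substrates, 10 rose, and the list's median log2 fold change was 2.55. Those that rose included Col1a1 (3.46), Fn1 (2.65) and Col4a1 (1.86), and 5 of 13 genes that process procollagen rose, with P4ha3 at 3.92 and the C-proteinase Bmp1 at 1.80. Compared to non-transformed kidney, 10 of 14 substrates and 7 of 13 processing genes rose, and 1 processing gene, P3h2, fell. In brain tumor 5 of 14 substrates were lower than in kidney tumor and none higher, among them Col1a1 at -2.90, and 2 of 14 processing genes, P3h2 and Tgm2, were lower. In retro-orbital compared to kidney tumor 4 of 14 substrates were higher and none lower (log2 fold changes of 1.42 in Fbn1, 1.02 in Col4a2 and 0.76 in Col4a1, and 14.5 ± 11.1 CPM compared to 2.44 ± 1.76 CPM in Acan). Processing genes went both ways there, with P4ha3 (3.70), P3h3 (1.32) and Plod1 (0.63) higher and Tgm2 (-3.78), P3h2 (-1.92) and P4ha2 (-0.59) lower. In brain compared to retro-orbital tumor 4 of 14 substrates and 3 of 14 processing genes were lower and none higher. In dysmorphic fetal kidney 3 substrates (Col1a1, Col1a2 and Fbn1) were higher by 1.10 to 1.45, and Cd44 by 2.25. Over all genes 12.5% were called higher in kidney tumor against control kidney. Against non-transformed kidney it was 12.1% higher and 5.02% lower. Against kidney tumor it was 8.26% higher and 9.45% lower in retro-orbital tumor and 4.2% lower in brain tumor. It was 1.34% lower in brain against retro-orbital tumor and 2.4% higher in dysmorphic fetal kidney.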

How the data were processed

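RNA of 36 libraries was prepared by the submitters from formalin-fixed tissue with a stranded total RNA kit (Kapa) without depletion of ribosomal RNA. The authors deposited whole-number counts per Ensembl gene in 2 tables, of 28 Sglt2-Cre and 8 Pax8-Cre libraries, with no normalization. The submitters' processing notes name FastQC, MultiQC, Bowtie2 and STAR 2.5.2a and the builds GRCm38 and mm10. The counter, the annotation and the strand setting are not given in the sources used here. Without the strand setting, reads of genes with exons on opposite strands cannot be assigned with certainty, which concerns the 17 members that share exon bases with another gene, 8 of them over 10%.

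Gene symbols came from GENCODE M21 (53274 of 53379 IDs matched). Libraries of 1 animal and tissue were summed, giving 28 sums of 17 animals. For each comparison only its groups entered the model in edgeR 4.0.16 (R 4.3.3), with filterByExpr, TMM factors, glmQLFit and glmQLFTest, and Benjamini-Hochberg adjustment over all genes tested, called under 0.05. Alternatives were RLE factors, no low-count filter, DESeq2 1.42.0, every library as a sample, each animal left out and a mouse or litter block. Levels are CPM with TMM factors over all sums. The precision of low values is limited by the depth given, and no interval was taken from counts alone. The module, role groups and gene lists were chosen with earlier results of these data known. In each comparison called members are given by size of the log2 fold change, in full for up to 8 without overlap and for the main member of a role group, and otherwise by count and range. Tests were tried on simulated counts first. Per-sample columns left out numbered 0.

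Samples of 1 mouse are paired through the mouse named in their titles. The correlation of their deviations from the group means was -0.0382 to 0.155 for kidney tumor and non-transformed kidney, 0.183 to 0.327 for retro-orbital and kidney tumor, and -0.165 to 0.0841 for brain and kidney tumor. Promoter sequences are from RefSeq (GRCm38.p6). The result of 1 gene outside the module is not reported here.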

Additional observations from a re-analysis of the deposited data

Results flagged for a closer look

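Of 136 member levels in groups of 4 to 6 animals, 14 held an animal far from the others, where about 1 in 20 would be 6.8. That share assumes normally spread values and independent members. Neither was tested, so no conclusion is drawn from the difference. In kidney tumor mouse 1 stood apart in Mmp7 (4.93 CPM), Mmp8 (2.88 CPM) and Mmp27 (2.58 CPM), 3 genes of the chromosome 9 cluster. Mouse 2 stood apart in Lox (58.1 CPM) and mouse 5 in Mmp16 (9.05 CPM). In non-transformed kidney mouse 4 was high in Mmp15 (2.37 CPM) and Mmp25 (0.259 CPM). In retro-orbital tumor mouse 2 was apart in Adamts1 (95.7 CPM) and in Mmp7, listed at 0 in a gene near 0 throughout this site, and mouse 3 in Mmp27 (1.24 CPM). In dysmorphic fetal kidney fetus 2 was apart in Mmp12 (3.22 CPM), fetus 3 in Mmp8 (4.34 CPM) and fetus 5 in Loxl4 (8.11 CPM) and Mmp25 (1.36 CPM).

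In 10 members the log2 fold change against control differed between kidney tumor and dysmorphic fetal kidney by edgeR's interaction test. It was larger in kidney tumor by 10.39 in Mmp10, 5.35 in Timp1, 2.97 in Mmp19, 2.88 in Adamts4, 2.33 in Loxl2, 1.87 in Mmp14, 1.68 in Pxdn, 1.67 in Mmp11 and 1.38 in Timp2, and the difference was -1.46 in Adamts5.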

How the results depend on the processing

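The 82 named values gave 1227 recomputed values over all alternatives, of which 984 kept direction and call, 243 kept direction and lost the call, and 0 reversed. Counts of called members moved by over 1.5 times as follows. With the mouse as replicate block, kidney tumor against non-transformed kidney went from 15 to 2 and brain against kidney tumor from 11 to 0, while retro-orbital against kidney tumor gave 11 in place of 14, of which 8 were among the 14. With DESeq2, non-transformed against control kidney went from 0 to 7 (4 with every library as its own sample), brain against kidney tumor to 18, brain against retro-orbital tumor from 8 to 23 and the fetal comparison from 4 to 15. The fetal count was 0 with the litter block and 0 without fetuses 3 and 5, chosen after seeing the data. Leaving out 1 animal gave 6 to 21 calls for kidney tumor against control kidney (6 to 8 without a control), 8 to 17 against non-transformed kidney (8, 9 and 8 without mouse 3, 1 and 5 of that group), 7 to 14 for brain against kidney tumor (7 without the kidney tumors of mouse 1), 0 to 15 for brain against retro-orbital tumor, 0 to 9 for the fetal comparison and 4 to 12 for the interaction (4 to 6 without a control kidney, 6 without control fetus 1 or 3). For brain against retro-orbital tumor the counts were 14, 5 and 15 without brain tumors 1, 2 and 4 and 0, 2, 5 and 3 without retro-orbital tumors 2, 3, 5 and 6. Other counts stayed within 1.5 times. Shares of all genes called under these alternatives are not given here, so a moved count cannot be set against its own background. Groups of 3 animals limit every comparison except those of kidney tumor with non-transformed kidney and retro-orbital tumor, and members near 0 (Mmp10, Mmp7, Mmp27) rest on few counts.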

Other observations

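Some ADAMTS members were higher in fetal kidney than in most adult samples. Adamts17 was at 20.1 to 29.9 CPM in control fetal kidney and 30.6 to 53.4 CPM in dysmorphic fetal kidney, compared to at most 7.08 CPM in any adult sample. Adamts18 was at 3.57 to 7.40 CPM in control fetal kidney and 5.32 to 8.96 CPM in dysmorphic fetal kidney, and over 1 CPM in adult tissue only in the kidney tumor (1.86 CPM) and the brain tumor (3.14 CPM) of mouse 2. Adamts19 was at 25.4 to 53.4 CPM in retro-orbital tumor and at 15.6 to 39.1 CPM in the fetal kidneys, compared to at most 0.179 CPM in control kidney and 8.39 CPM in kidney tumor, where mouse 5 was highest. In brain tumor it was at 22.8, 1.57 and 0.337 CPM in mice 1, 2 and 4. Its log2 fold change in retro-orbital compared to kidney tumor was 4.26 ± 1.33 (edgeR adjusted p = 0.0515), with all 4 tumors above the kidney range. Adamts13, which cuts von Willebrand factor, was at or under 1.05 CPM in every sample.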
